A study of Rattus norvegicus with 8 samples.

Results

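The Ah receptor pathway was followed in the distal colon mucosa of rats through 8 genes: the receptor Ahr, its partner Arnt, the feedback inhibitors Ahrr and Tiparp, and the target genes Cyp1a1, Cyp1a2, Cyp1b1 and Nqo1. The genes were named by their known roles, though earlier results of these data were known when they were chosen. They were taken as every probe set whose only gene symbol in the platform annotation was one of them, dim probe sets included. That gave 10 probe sets for 8 of the 14217 genes with a probe set of their own on the array. Where a gene had more than one, the probe set with the highest mean over all arrays led and the other was kept as a check. The question put to the series was which transcripts differ between a quercetin diet and a control diet. Rats were fed a standard breeder diet (control, 4 arrays) or 10 g of the plant flavonol quercetin per kg of diet (quercetin, 4 arrays) for 11 weeks, and RNA of mucosal scrapings was hybridised to Affymetrix arrays. The sources used here give neither strain, sex nor age, and do not say whether each array holds RNA of a separate rat. So every p-value measures the spread between these 8 samples.

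The Ah receptor is a transcription factor of the bHLH-PAS family that waits in the cytosol with the chaperone HSP90 until a small aromatic ligand binds it. It then enters the nucleus, pairs with ARNT and binds xenobiotic response elements, which turns on CYP1 enzymes that oxidise many of its ligands, NQO1, which reduces quinones, and its own inhibitors AHRR and TIPARP. In the gut it is known as a sensor of dietary flavonoids and of indoles made by bacteria, and quercetin has been studied as one of its ligands.

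The letters GCGTG form the core of a xenobiotic response element. They were searched on both strands of the promoter windows that RefSeq (GRCr8) gives, from 250 bases before to 50 after a gene's start. A window was found for 7 of the 8 genes. Cyp1a1 had none and was not searched. GCGTG was present in 5 of these windows, in 8 places in all, and in 29.7% of the 33469 windows of all genes. The longer form TNGCGTG, which contains the shorter one, was present in 2, Ahrr and Cyp1b1, and in 4.89% of all windows. Ahrr had the most matches, 3, and Cyp1b1 had 2. Arnt, Tiparp and Nqo1 had 1 each, while Ahr and Cyp1a2 had 0. The core includes a CG pair, and the windows held from 0 such pairs (Cyp1a2) to 37 (Ahr). The shares over all windows were not matched for this, and its part in the matches was not tested. The upstream parts of the windows of both inhibitors and of Cyp1b1, and the 30 bases around the match of Nqo1, are shown. These are the genes, known from elsewhere as induced by the receptor, whose windows hold the letters GCGTG. Bases in capitals are GCGTG, or CACGC where it lies on the other strand. Ahrr lies at chr1:30821969-30822218 on the plus strand, Tiparp at chr2:152063519-152063768 on the plus strand, Cyp1b1 at chr6:21094315-21094564 on the plus strand and the Nqo1 stretch at chr19:52220260-52220289 on the minus strand.
Ahrr: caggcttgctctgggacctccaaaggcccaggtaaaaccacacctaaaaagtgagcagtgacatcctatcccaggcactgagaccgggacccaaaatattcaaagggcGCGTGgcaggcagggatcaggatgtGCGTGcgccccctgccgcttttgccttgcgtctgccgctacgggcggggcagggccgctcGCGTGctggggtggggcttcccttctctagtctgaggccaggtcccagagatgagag
Tiparp: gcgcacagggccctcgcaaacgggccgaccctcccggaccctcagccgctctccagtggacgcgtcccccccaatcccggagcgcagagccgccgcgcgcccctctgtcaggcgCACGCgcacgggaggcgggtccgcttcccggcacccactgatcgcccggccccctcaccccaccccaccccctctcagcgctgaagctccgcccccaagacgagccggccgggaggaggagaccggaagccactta
Cyp1b1: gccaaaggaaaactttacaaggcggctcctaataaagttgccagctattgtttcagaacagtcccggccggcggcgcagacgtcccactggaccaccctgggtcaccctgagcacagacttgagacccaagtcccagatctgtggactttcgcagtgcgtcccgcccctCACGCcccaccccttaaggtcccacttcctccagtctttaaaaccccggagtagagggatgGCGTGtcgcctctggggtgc
Nqo1: cctaggctgtggCACGCaggatctttccga

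**Figure D1:**
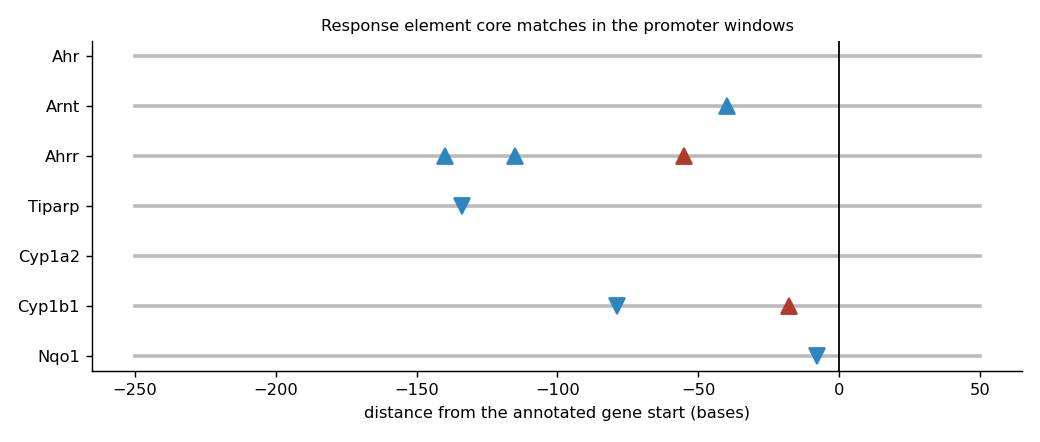
Position of each GCGTG match in the RefSeq promoter windows of 7 genes, in bases from the annotated start (black line at 0). Triangles that point up are on the gene's strand and those that point down on the other strand; red marks a match inside TNGCGTG and blue the rest. Ahrr has 3 matches and Cyp1b1 2, while the windows of Ahr and Cyp1a2 hold 0.

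In Ahrr the matches began 142, 117 and 57 bases before the start, in Cyp1b1 81 and 20, in Tiparp 136, in Arnt 42 and in Nqo1 10. A match describes the letters of this window and does not show a bound site, and the window does not reach more distant elements.

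Values are MAS5 signals, a linear brightness per probe set. Their trimmed mean was nearly equal on every array, as after scaling to a common mean, though the sources used here do not describe that step. Arrays correlated on average at 0.927 to 0.955 with the others, lowest for control array 2. Its 3' to 5' signal ratios, measures of shortened RNA, were also the highest, at 3.79 for GAPDH against 1.58 to 2.36 on the other arrays and at 21.4 for beta-actin against 6.79 to 12.4. As a check of the tissue, 10 of 10 markers of absorptive colonocytes and 7 of 7 of goblet cells were in the upper 60% of probe sets by brightness. Of 78 markers measured for 11 cell types, 48 were in it. In each of the 11 lists the range of summed marker signals of the quercetin arrays overlapped that of the control arrays. The list of dividing and crypt base cells had 5 of 8 markers, 62.5%, with an unadjusted limma p under 0.05, all higher with quercetin. Of all probe sets 8.63% had such a p, and 3.88% were higher. The list median was 0.72. All 6 measured endothelial markers were lower with quercetin, with a median of -0.30, and 1 of them had such a p.

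Brightness separated the 8 genes before any comparison of diets. The lead probe sets of Tiparp, Nqo1 and Ahr were in the upper 60%, at the 87.0, 82.7 and 45.1 percentile of all 31042 probe sets. Those of Ahrr, Arnt, Cyp1b1, Cyp1a2 and Cyp1a1 were below it, at the 36.4, 34.6, 27.9, 5.53 and 3.24 percentile. As a reference for dim probe sets, chosen after the values were seen, 41 probe sets for odorant and pheromone receptors, lens crystallins and sperm proteins had a median signal of 14.0, with 4.40 and 28.3 as their 10th and 90th percentiles. Over all arrays the typical signals of Cyp1a1 (4.42), Cyp1a2 (5.71), Cyp1b1 (17.8), Arnt (23.6) and Ahrr (25.3) lay within that range. Typical signals of Ahr (36.9), Nqo1 (342) and Tiparp (480) lay above it. Probe sets differ in how strongly they bind, so this gives no order of transcript levels, and a dim signal does not show that a transcript is missing.

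Of the receptor pair, neither gene differed between the diets beyond the spread of its arrays. Ahr, the ligand-binding receptor, had lead signals of 58.5, 36.8, 48.2 and 10.7 on control arrays 1 to 4 and of 37.3, 36.5, 63.5 and 24.8 on quercetin arrays 1 to 4. The quercetin values fell among the control values except for array 3, which was just above them. The difference on the log2(signal + 16) scale, quercetin minus control, was 0.11 (SE 0.375, limma adjusted p = 0.965), and its 95% interval ran from -0.70 to 0.91. This small constant of 16 keeps dim values from scattering and makes a fold change of a dim gene look smaller than it is.

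The other Ahr probe set did not follow the lead. Its signals were 29.3, 4.18, 44.5 and 54.5 in the control group and 18.2, 41.1, 46.9 and 57.1 in the quercetin group, a log2 difference of 0.30 (SE 0.417, limma adjusted p = 0.887). Control array 4 was the lowest of the 8 on the lead and the second highest on the other. Over the 8 arrays, which share these dim signals and 1 scaling each, Pearson's r between the probe sets was -0.22 and Spearman's rho -0.33. Neither probe set therefore gives a firm level for Ahr. The lead value was -0.20 without control array 4 and -0.07 without quercetin array 3, and that of the other probe set -0.08 without control array 2.

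Arnt, the partner that Ahr shares with the hypoxia factors, had signals of 21.0, 7.90, 43.8 and 51.6 in the control group and of 26.6, 6.63, 13.5 and 43.0 in the quercetin group. Each group held a value under 8 and a value over 40. For Arnt the log2 difference was -0.27 (SE 0.408, limma adjusted p = 0.896), with a 95% interval from -1.15 to 0.61. It was -0.56 without control array 2 and -0.05 without quercetin array 2.

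The inhibitors were measured at very different brightness. Ahrr, a relative of the receptor that competes with it for ARNT, had signals of 12.0, 28.8, 30.2 and 18.9 in the control group and of 33.5, 32.6, 43.8 and 13.1 in the quercetin group. On 3 of the 4 quercetin arrays the value was above every control value, and quercetin array 4 was near the lowest control. For Ahrr the log2 difference was 0.26 (SE 0.328, limma adjusted p = 0.871), with a 95% interval from -0.45 to 0.97. Leaving out quercetin array 4 gave 0.48 and leaving out control array 1 gave 0.12.

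Tiparp, a mono-ADP-ribosyltransferase that modifies the receptor and promotes its loss, was far brighter. Its difference was still measured only about as closely as that of a typical probe set. The 95% interval reached 0.57 to either side, against a median of 0.61 over all probe sets. Lead signals were 530.1, 243, 550.4 and 762 in the control group and 412, 455, 599 and 455 in the quercetin group. The quercetin arrays all lay inside the range of the control arrays, which was set by control array 2 at the low end and control array 4 at the high end. Means were 521 ± 213 (SD, n = 4) and 480.4 ± 81.9 (SD, n = 4). The log2 difference was -0.02 (SE 0.265, limma adjusted p = 0.990), and its 95% interval, from -0.60 to 0.55, corresponds to 0.662 to 1.46 times the control level.

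On the other Tiparp probe set the quercetin arrays also lay inside the control range, with 457, 208.5, 324 and 351 in the control group and 308, 364, 258 and 325 in the quercetin group. Control array 2 was again the lowest of the 8, but the highest was control array 1 and not control array 4. The log2 difference was -0.05 (SE 0.207, limma adjusted p = 0.971), with a 95% interval from -0.50 to 0.40. Pearson's r between the Tiparp probe sets over the 8 arrays was 0.58 and Spearman's rho 0.29. Control array 2 is the array with the highest 3' to 5' ratios, and with the GAPDH ratio as a covariate the log2 difference was -0.11 (SE 0.217, limma adjusted p = 0.904) for the lead and -0.13 (SE 0.137, limma adjusted p = 0.786) for the other probe set. The lead value was -0.34 without control array 2, 0.19 without control array 4 and 0.03 when each array was centred on its median. Without control arrays 1 and 2 it was -0.43 (unadjusted p = 0.0380, adjusted p = 0.734, both from limma). The other probe set did not share this, at -0.11 in the same fit (unadjusted p = 0.533, adjusted p = 0.933, both from limma).

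**Figure D2:**
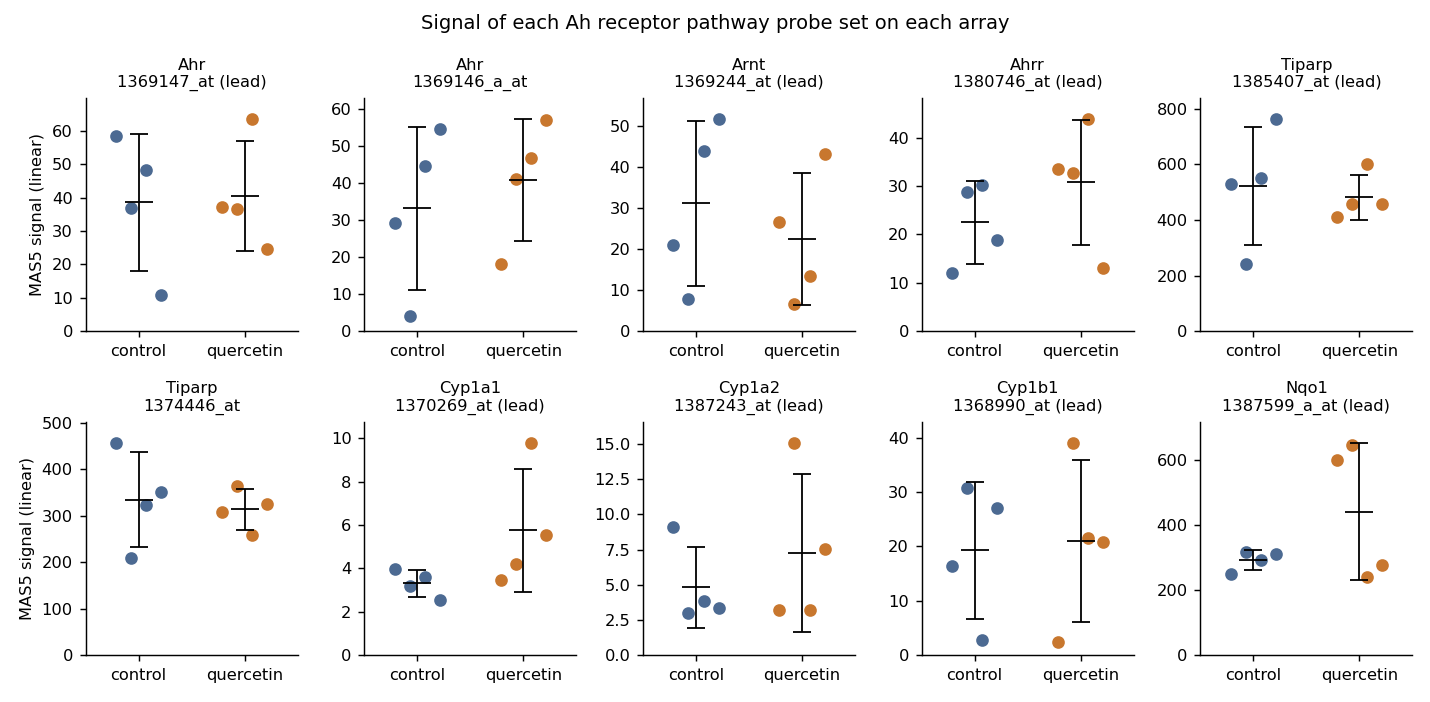
MAS5 signal (linear, each panel from 0 on its own scale) of the 10 probe sets on the 4 control arrays (blue) and the 4 quercetin arrays (orange), in array order from left to right within a group; black bars are the mean and SD. The groups overlap in all 10 panels, and 2 quercetin arrays stand above the other arrays for Nqo1.

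Among the CYP1 enzymes, the classical readout of receptor activity, Cyp1a1 gave some of the dimmest signals on the array. They were 3.95, 3.18, 3.58 and 2.51 in the control group and 3.44, 4.21, 9.79 and 5.54 in the quercetin group. Quercetin arrays 2, 3 and 4 were above all controls and quercetin array 1 lay among them, but none reached a signal of 10. The log2 difference was 0.16 (SE 0.180, limma adjusted p = 0.847), with a 95% interval from -0.22 to 0.55. The exact permutation test over the 8 arrays, two-sided, gave p = 0.0857, where 0.0286 is the smallest that 4 against 4 allows. With a constant of 1 in place of 16 the log2 difference was 0.57 (SE 0.578, limma adjusted p = 0.833), so the size depends on how signals near the floor are treated.

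Cyp1a2, the liver-enriched enzyme beside Cyp1a1 in the genome, had signals of 9.07, 3.01, 3.82 and 3.34 in the control group and of 3.20, 15.1, 3.20 and 7.54 in the quercetin group. Control array 1 and quercetin arrays 2 and 4 were above the other arrays, which all lay between 3.01 and 3.82. A log2 difference of 0.14 was measured for Cyp1a2 (SE 0.219, limma adjusted p = 0.901), with a 95% interval from -0.33 to 0.61, and it was -0.01 without quercetin array 2.

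Cyp1b1 encodes the CYP1 enzyme of tissues outside the liver and is often found in stromal cells. Its signals were 16.4, 30.8, 2.78 and 27.0 in the control group and 2.39, 39.1, 21.6 and 20.9 in the quercetin group, and each group had 1 array near 3. On the log2 scale quercetin minus control was 0.05 for Cyp1b1 (SE 0.391, limma adjusted p = 0.986), with a 95% interval from -0.79 to 0.89. It was -0.23 without control array 3 and -0.18 without quercetin array 2. Markers of fibroblasts and matrix, 9 of 9 measured and 4 in the upper 60%, had a summed signal of 291 to 476 in the control group and of 289.6 to 488 in the quercetin group. In such scrapings fewer cells of a type and less RNA per cell cannot be told apart.

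Nqo1, an enzyme that the Ah receptor and NRF2 both induce and that reduces quinones, had a higher mean signal in the quercetin group, and that difference rested on part of the group. Its signals were 248, 316, 293 and 311 on control arrays 1 to 4 and 598, 647, 239.7 and 277 on quercetin arrays 1 to 4. Quercetin arrays 1 and 2 were well above every control, array 3 was below every control and array 4 was among them. Means were 292 ± 31.1 (SD, n = 4) on control arrays against 440.2 ± 211 (SD, n = 4) on quercetin arrays. The log2 difference was 0.44 (SE 0.274, limma adjusted p = 0.703; exact permutation p = 0.4), with a 95% interval from -0.15 to 1.04, or 0.903 to 2.05 times the control level. Without quercetin array 1 it was 0.26, without array 2 0.22 and without array 3 0.68 (unadjusted p = 0.0200, adjusted p = 0.468, both from limma).

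The genes whose signals most resembled those of Nqo1 over the 8 arrays were sought among 13718 probe sets of 1 symbol in the upper 60%. Akr1b8, an aldo-keto reductase, came first, with Pearson's r of 0.961. Its signals were 636, 800.2, 937 and 752 in the control group and 2812, 2008, 648 and 684 in the quercetin group, so quercetin arrays 1 and 2 again stood above the rest and arrays 3 and 4 did not. Its log2 difference was 0.69 (limma adjusted p = 0.660). Oma1, a mitochondrial protease (r = 0.949), Nup43, a nuclear pore protein (r = 0.941), and Degs1, a desaturase of ceramide synthesis (r = 0.939), followed, with log2 differences of 0.11, 0.16 and 0.34. These were the highest of many correlations over few arrays and are a description only.

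**Figure D3:**
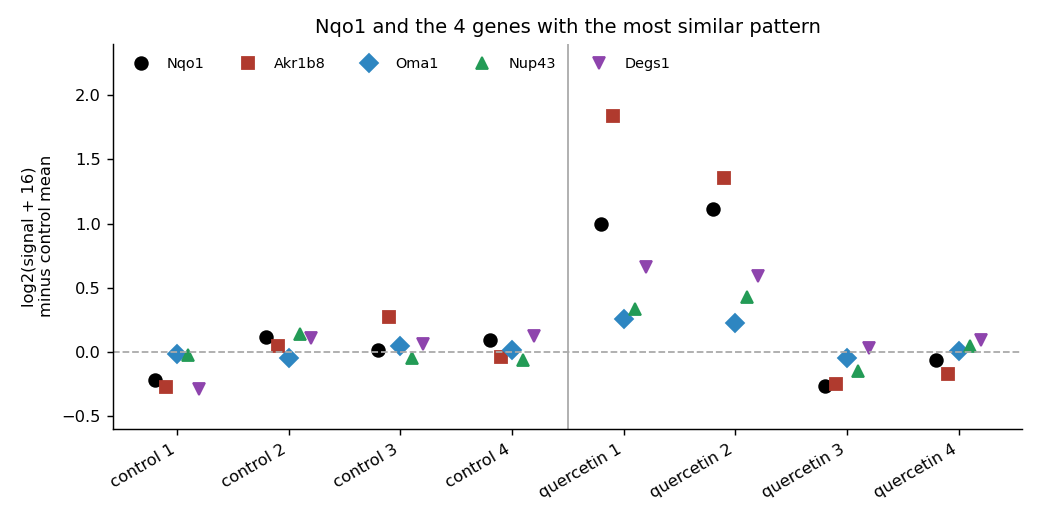
Log2(signal + 16) minus the mean of the 4 control arrays, for Nqo1 and the 4 genes with the highest Pearson correlation to it, on each array. All 5 genes are highest on quercetin arrays 1 and 2 and near the control mean on arrays 3 and 4; the genes other than Nqo1 were picked for this likeness.

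For Tiparp the most similar patterns were those of Aff4, a scaffold of transcription elongation (r = 0.947), Spats2l (r = 0.940), Zfyve21 (r = 0.939) and Cldn18 (r = 0.938). Their log2 differences were between -0.06 and 0.05. For the dim lead probe set of Ahr they were Zfp455 (r = 0.960), Hycc2 (r = 0.943), Prr15 (r = 0.942) and Map3k1 (r = 0.934).

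Taken as a group, the 8 genes gave 0 lead probe sets past an adjusted p of 0.05 in limma, and 0 at an unadjusted p under 0.05. Of all 31042 probe sets 1 passed the adjusted threshold, 0.00322%, and 8.63% had an unadjusted p under 0.05 (3.88% higher and 4.75% lower with quercetin). None of the 10 exact permutation tests gave a p under 0.05, and their p-values ran from 0.0857 to 0.971. With 4 arrays against 4, such a test falls under 0.05 only where the groups do not overlap. It is therefore not separate from the count of overlaps that follows. The groups did not overlap in 0 of the 8 lead probe sets, against 5.11% of all probe sets. The lead value was above 0 in 6 genes and below 0 in 2, where 49.6% of all probe sets were above 0. The median over the 8 was 0.12 and over all probe sets -0.003. Their 95% intervals on the log2 scale with the added constant reached between 0.39 and 0.88 to either side. Changes of up to about those sizes on that scale could not be told from none. The smallest reach, 0.39, was that of the dim Cyp1a1, and the added constant shrinks the fold changes of dim genes. With a constant of 1 the SE of Cyp1a1 was 0.578 in place of 0.180. So 0.39 is no limit on the fold change of its signal.

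**Figure D4:**
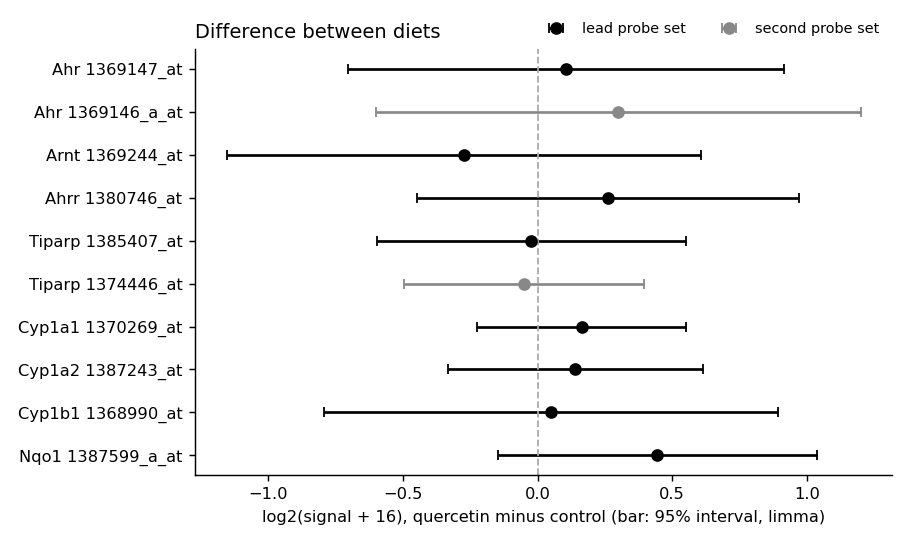
Quercetin minus control on the log2(signal + 16) scale for the 10 probe sets (points), with limma's 95% interval (bars); lead probe sets are black and second probe sets grey. Every interval includes 0, that of Nqo1, with a value of 0.44, among them.

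Other genes around the receptor were read from 8 lists, 97 of 116 listed genes measured, and 0 passed limma's adjusted threshold in either direction. In the cytosolic complex and turnover list, 1 of 7 measured genes had an unadjusted p under 0.05. This was the chaperone Hsp90ab1, with a signal of 2635 ± 396 (SD, n = 4) on control arrays against 3434 ± 595 (SD, n = 4) on quercetin arrays and a log2 difference of 0.38 (SE 0.155, limma adjusted p = 0.524). Cul4b, the scaffold of a ligase that works with the receptor, had 0.36 and Tbl3 0.29. Coregulators had 0 of 13 genes at that level, with Med1 at -0.29, Sp1 at -0.37 and Ep300 at 0.22 and a list median of 0.02, though the other probe sets of Med1 ran from -0.18 to 0.11 and those of Sp1 from -0.66 to 0.30.

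Among the partners of ARNT and related bHLH-PAS factors 1 of 15 had an unadjusted p under 0.05. Npas2, an activator of clock genes, had a signal of 1092 ± 183 (SD, n = 4) on control arrays against 697 ± 84.6 (SD, n = 4) on quercetin arrays. Its groups did not overlap, and the log2 difference was -0.63 (SE 0.143, limma adjusted p = 0.348). Clock had 0.20, with other probe sets from -0.45 to 0.22, and the dim Npas1 -0.47. Of the relatives of Tiparp among the PARP enzymes, Parp1, which marks DNA breaks, had 0.56 (SE 0.137, limma adjusted p = 0.348), Parp9 -0.33 and Parp12 -0.38, and 1 of 10 was at that level.

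Further genes that the receptor can induce had 1 of 16 at an unadjusted p under 0.05, and it was lower in the quercetin group. Fos, an immediate early transcription factor with many other inputs, had 3530 ± 757 (SD, n = 4) on control arrays against 2115 ± 577 (SD, n = 4) on quercetin arrays, a log2 difference of -0.76 (SE 0.218, limma adjusted p = 0.395), with 0.49 on its other probe set. Aldh3a1, an aldehyde dehydrogenase that is a classical target, was dim, at 12.1, 5.49, 2.60 and 3.26 in the control group and 40.2, 2.64, 40.4 and 14.3 in the quercetin group. Quercetin arrays 1, 3 and 4 were above all controls, and array 2 was at the low end of them. The log2 difference of Aldh3a1 was 0.76 (SE 0.355, limma adjusted p = 0.581), and Ereg, an EGF receptor ligand, had -0.62.

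Enzymes that break down tryptophan to receptor ligands had 1 of 9 genes at an unadjusted p under 0.05. It was the dim Aadat, which makes kynurenic acid, with 6.87 ± 6.33 (SD, n = 4) against 25.7 ± 7.92 (SD, n = 4) and no overlap between the groups, a log2 difference of 0.89 (SE 0.280, limma adjusted p = 0.428). Kyat1, another kynurenine aminotransferase, had -0.37 and Afmid, the step before, -0.43, with -0.13 and 0.65 on its other probe sets. The list of electron donors and haem enzymes for CYP1 proteins had 1 of 11 at an unadjusted p under 0.05. This was Cyb5b, the cytochrome b5 of the mitochondrial outer membrane, at 0.45 (SE 0.119, limma adjusted p = 0.378) and 0.06 on its other probe set. Whether Cyb5b serves CYP1 proteins was not tested. Of the other donors, Por had 0.17, with 0.33 on its other probe set, Cyb5r3 0.07 and Cyb5a -0.004. Of the measured enzymes of haem synthesis, Urod had 0.27, Fech 0.26, Cpox 0.26, Alad 0.08 and Uros 0.04, with -0.22 on the other Uros probe set. Alas1 had -0.08 and Ppox -0.41. The groups did not overlap for Urod, which was higher with quercetin, and for Ppox, which was lower. Without the list of NRF2 targets, 6 of 77 genes of these lists, 7.79%, had an unadjusted p under 0.05, 4 higher and 2 lower, beside the 8.63% of all probe sets.

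NRF2 is the sensor of oxidants and electrophiles that shares Nqo1 with the Ah receptor, and its other targets were listed, with its gene Nfe2l2 and its inhibitor Keap1, to set Nqo1 beside them. Earlier results of these data were known when the list was written, so it is no independent evidence. Of 20 measured genes 8, or 40%, had an unadjusted limma p under 0.05, all higher in the quercetin group. Of all probe sets 8.63% had such a p, and 3.88% were higher. In the list 0 genes passed limma's adjusted threshold, and the list median was 0.34. Values were above 0 in 17 genes and below 0 in 3, which were Srxn1 (-0.29), Txn1 (-0.25) and Nfe2l2 itself (-0.13). Gclc (0.26), Hmox1 (0.26) and Gclm (0.03) were above 0 but without an unadjusted limma p under 0.05. The NRF2 genes with the smallest p were Abcc3, a pump for conjugates, at 0.76 (SE 0.148, limma adjusted p = 0.308), Cat, which breaks down hydrogen peroxide, at 0.72 (SE 0.144, limma adjusted p = 0.308), and Tkt, a transketolase of the pentose phosphate route, at 0.62 (SE 0.158, limma adjusted p = 0.361). Signals of Abcc3 were 569.8, 569.5, 587 and 630.5 in the control group and 767, 1216, 954 and 1156 in the quercetin group. The quercetin arrays were all above the controls, unlike those of Nqo1. Whether Nqo1 differs from these genes in its response was not tested. Of the markers of dividing and crypt base cells 7 of 8 had values on the same side. For 5 of the 8 the unadjusted limma p was under 0.05, against the same 8.63% of all probe sets, and 0 passed the adjusted threshold. The part of these cells in the values of the NRF2 list was not tested.

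**Figure D5:**
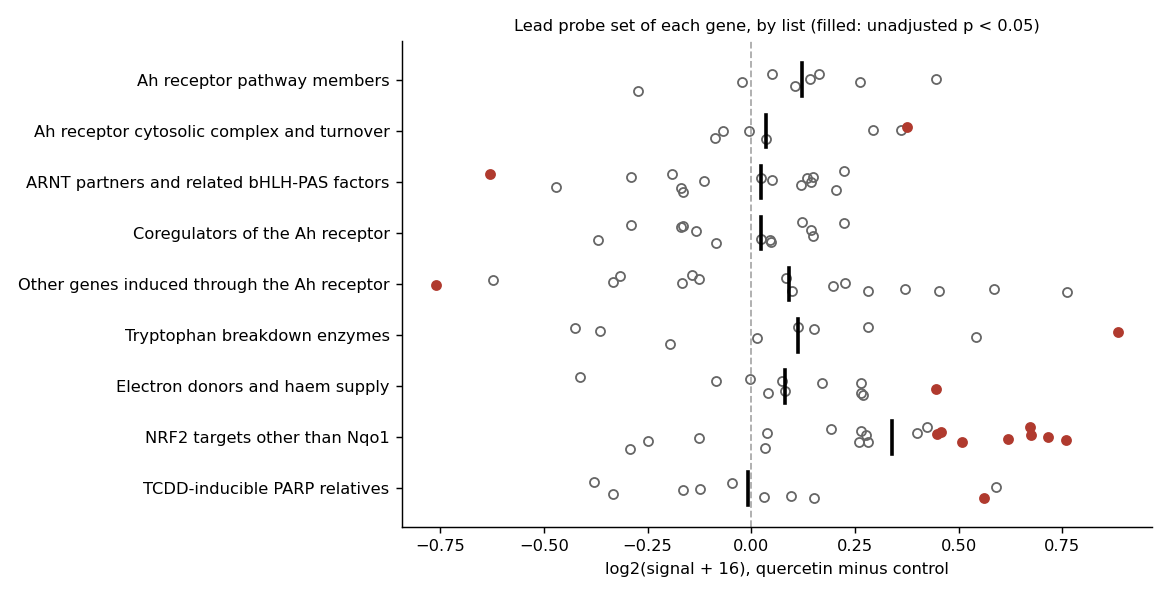
Quercetin minus control on the log2(signal + 16) scale for the lead probe set of each measured gene (circles), by list; filled red circles have an unadjusted limma p under 0.05, none passes after adjustment, and the black bar is the list median. The 8 members have 0 filled circles and the NRF2 targets 8 of 20; Nfe2l2 and Ncoa1 to Ncoa3 stand in more than one list.

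Markers of dividing and crypt base cells, 8 of 8 measured, with Lgr5 and Ascl2 below the upper 60%, had summed signals of 728, 2122, 2146 and 1542 in the control group. In the quercetin group they were 3317, 2880, 2287 and 2073, highest on the arrays that were also highest for Nqo1. The beta-actin 3' to 5' ratio was 6.79 to 9.12 on the quercetin arrays and 8.65 to 21.4 on the control arrays. Of the markers, Cdk1, the mitotic kinase, had a log2 difference of 0.92 (SE 0.245, limma adjusted p = 0.378) and Foxm1, a mitotic transcription factor, 1.26 (SE 0.360, limma adjusted p = 0.395), both without overlap between the groups and both chosen after their values were seen. The part of these cells in the Nqo1 values was not tested. With the GAPDH ratio as a covariate the log2 difference of Nqo1 was 0.46 (limma adjusted p = 0.600). The beta-actin ratio was not used as a covariate, so this value does not account for it.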

How the data were processed

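The authors deposited an intensity on a linear scale for each probe set of each array. MAS5 is named by the submitters' processing notes; its version, the other steps and the genome build: not given in the sources used here. Trimmed by 2% at both ends, the mean was 200.1 on every array, so levels are relative to a constant array mean, and no detection calls were used. The 57 array controls among the 31099 probe sets were not tested. Of the remaining 31042, 20826 had 1 gene symbol in the platform annotation, 436 several and 9780 none; 20758 of the single-symbol sets matched RefSeq (GRCr8) by Entrez identifier, and 0 symbols changed.

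All 31042 probe sets, dim ones included, were compared as log2(signal + 16) with limma 3.58.1 in R 4.3.3 (mean-variance trend, two-sided, Benjamini-Hochberg over the whole table, threshold 0.05). The median standard error was 0.283; the number of arrays limits the precision. Exact permutation tests over the arrays were run for the 10 member probe sets. The fit was tested on simulated data. Groups and numbers came from sample titles. The members, lists and tests were chosen with earlier results of these data known. The naming rule took all 8 members, the 3 genes with the smallest p in each list, and the 4 most similar patterns for each member lead in the upper 60% of probe sets (mean log2 of at least 5.50). Some genes of the NRF2, electron donor and dividing cell lists were named outside that rule, after their values were seen. Alternatives were the constant (1 or 64), that filter, quantile normalisation, median centring, a replicate block, array weights, no trend, gene means, a GAPDH covariate, and arrays left out.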

Additional observations from a re-analysis of the deposited data

Results flagged for a closer look

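In the 4 control arrays, Cyp1a2 on array 1 lay apart from the rest, at a signal of 9.07 against 3.01 to 3.82. Its gap to the nearest array was 0.848 of the group's log2 range. This was the one such array in 20 groups of 4 (10 probe sets in 2 diets), where chance gives about 1.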

How the results depend on the processing

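No lead probe set of the 8 genes passed limma's adjusted threshold under any of the alternatives, but with so few arrays that says little about stability. Directions held throughout for Arnt, Ahrr, Cyp1a1 and Nqo1. The replicate block, the fit without the trend and the upper 60% filter cannot change a direction. Neither can gene means for these genes, which have 1 probe set each. Those settings therefore add nothing to this. Tiparp turned to 0.027 with median centring, its second probe set to 6.87e-05 there, and the second probe set of Ahr to -0.26 without control arrays 1 and 2. With 1 array left out the log2 differences ran from -0.20 to 0.29 for Ahr, -0.34 to 0.19 for Tiparp, -0.0086 to 0.23 for Cyp1a2, -0.23 to 0.35 for Cyp1b1, -0.080 to 0.53 for the second probe set of Ahr and -0.25 to 0.11 for that of Tiparp. Among the genes that kept their sign they ran from -0.56 to -0.05 for Arnt, 0.12 to 0.48 for Ahrr, 0.08 to 0.21 for Cyp1a1 and 0.22 to 0.68 for Nqo1. The count of lead probe sets with an unadjusted p under 0.05 was 0, and 0 to 1 with 1 array left out (Nqo1 without quercetin array 3 or 4) and 1 without control arrays 1 and 2 (Tiparp). The median over the 8 genes, 0.12, was 0.30 with a constant of 1, which widens differences between dim signals, and 0.04 to 0.22 with 1 array left out. Over the whole table the 1 probe set past the threshold became 2 in the upper 60% of probe sets, where fewer are tested, 0 without the trend, 0 with gene means, 0 without control arrays 1 and 2, and 1 to 2 with 1 array left out; at an unadjusted p under 0.05 there were 2678. In the upper 60% the 5 dim genes have no value. With each sample number once per group, the replicate block cannot move a log2 difference and acts only on its SE and p. It changed no call (Nqo1 0.44, limma adjusted p = 0.657). The sample numbers were not taken as pairs: deviations of equal numbers correlated at -0.02, 0.16, -0.15 and 0.14, and not every sample correlated best with its own number.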
